A study of Arabidopsis thaliana with 4 samples.

Results

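Of 13539 measured probe sets in Arabidopsis thaliana seedlings, 42 had at least 2-fold more signal at 16 than at 22 °C both in high and in low R:FR, the ratio of red to far-red light. These 42 are described here. They were chosen by the same 4 signals that show the difference, so their temperature differences describe the choice and are not tested. A signal is the brightness of the probes for one transcript. Signals below the 30th percentile of all signals were raised to that percentile, the floor, log2 was taken, and a probe set counted as measured when its mean log2 over the 4 arrays reached that of a signal of 23.2. Control probe sets and 150 probe sets with IDs from 244901 to 245050 were left out. Of the 42 members, 24 matched 1 gene here (57.1%, against 53.5% of all measured probe sets) and 18 matched none. Only COR27, COR15B and SWEET13 carry a gene symbol in the tables used, and the other 21 are given by locus tag.

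All seedlings were of the accession La-er and mutant for PHYA, which encodes phytochrome A, a photoreceptor for far-red light. The labels give the allele as phyA-2, and as phyA with no allele number for 16 °C and low R:FR. No array of plants with an intact PHYA was used, so every value below belongs to that mutant. Plants grew on soil at 16 or at 22 °C under 100 µmol per m2 and s of white light at an R:FR of 4.4. The low R:FR groups spent their last 24 h at an R:FR of 0.1. All were 5 days old when cotyledons, with some hypocotyl, were taken for RNA. Each of the 4 groups has 1 array, and nothing says how many plants it holds.

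Low but non-freezing temperature starts cold acclimation in Arabidopsis. CBF transcription factors are then known to switch on COR genes, whose products protect membranes and chloroplasts. Sugars and membrane lipids are adjusted as well. Whether the cooler temperature used here starts cold acclimation was not tested. Low R:FR is the signal of neighbouring plants, read by phytochromes. In seedlings of one age, a lower temperature also means slower growth, and growth stage was not measured, so it cannot be told apart from temperature here.

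No condition was repeated, so no comparison has a replicate check or a p-value, and precision is limited by the number of arrays. A mean trimmed by 2% at either end was 100.01 on all arrays, but medians were 36.1 and 36 at 16 °C and 39.2 and 40.6 at 22 °C. For 18 probe sets of spike-in transcripts added before hybridization (34.5 to 3280 in signal), temperature differences had an SD of 0.21 (log2) in either light condition, and none exceeded 0.68 in size. They show the error from hybridization onwards only. For 6 control pairs the 3' over 5' ratio, a measure of RNA quality, had mean log2 values from 0.54 to 0.82. The highest and the lowest of these were both from 16 °C arrays, in high and low R:FR, and the 22 °C arrays lay between them. On the array of 16 °C with low R:FR, 257 measured probe sets lay at least 2-fold below the 3 other arrays, against 9 to 55 on the others. None of the 42 members could have its lowest signal there, since the rule required more signal at 16 than at 22 °C in low R:FR. The leaf transcripts RCA (Rubisco activase) and LHCB4.1 (a light-harvesting protein) had signals between 3774 and 4327 on all arrays. Other leaf transcripts were not all as steady. LHCB4.2 was lower at 16 °C, by log2 -0.41 in high and -0.52 in low R:FR, with its lowest signal (814) in low R:FR at 16 °C. LHCB4.3 was at 0.32 and -0.35, and PORB at -0.05 and -0.10. Of markers of other tissues, CLV3 of the shoot apex was below the floor on all arrays, and PYK10, known from roots and hypocotyls, had signals of 1083 to 2913. PYK10 was lower at 16 than at 22 °C in both light conditions (log2 -0.53 and -1.39), and the part of tissue make-up in the members' differences was not tested. In whole tissue, fewer cells of a type and less RNA per cell cannot be told apart.

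The best known members are genes known from the cold response. COR27, a cold-induced gene known to act on the circadian clock and on freezing tolerance, had a signal of 76.5 in high and of 95.9 in low R:FR at 16 °C. At 22 °C the signals were 30.3 and 32.8. Both 16 °C values lie above both 22 °C values, and the temperature ratio was 2.52 in high and 2.92 in low R:FR. COR27 thus differed by temperature to much the same degree in either light, with log2 differences of 1.34 and 1.55.

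COR15B, which encodes a chloroplast protein known to stabilise membranes during freezing, had signals of 55.2 and 24 at 16 and 22 °C in high R:FR. In low R:FR the signals were 588 and 26.8. Its temperature ratio was 2.3 in high and 21.9 in low R:FR, so that its signal at 16 °C was far higher in low than in high R:FR. Its smaller difference was log2 1.20, or 0.55 with the floor raised to the median signal and 0.86 with a pseudocount instead of a floor, so COR15B was no member with either. Its neighbour in the genome, COR15A, was no member, with 15.3 and 28.7 in high R:FR (log2 -0.91) and 314 and 18.8 in low R:FR (log2 4.06). Its 15.3 lies below 17.9, the highest signal of 27 control probe sets with no partner in the sample, so the size of its difference in high R:FR is uncertain. The direction rests on 1 array per condition. Both have similar sequences, and cross-hybridization between them was not tested.

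AT4G30650, of the RCI2 family of small membrane proteins induced by cold and salt, was the only member with a gene that passed 4-fold in both light conditions. At 16 °C its signal was 273 in high and 575 in low R:FR. At 22 °C they were 65.2 and 32.6, which gives ratios of 4.18 and 17.6. The low R:FR arrays held both its highest and its lowest signal. Its neighbour AT4G30660 is of the same family, and cross-hybridization was not tested here either. Family names of loci without a symbol are general knowledge of Arabidopsis and do not come from the tables used.

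**Figure D1:**
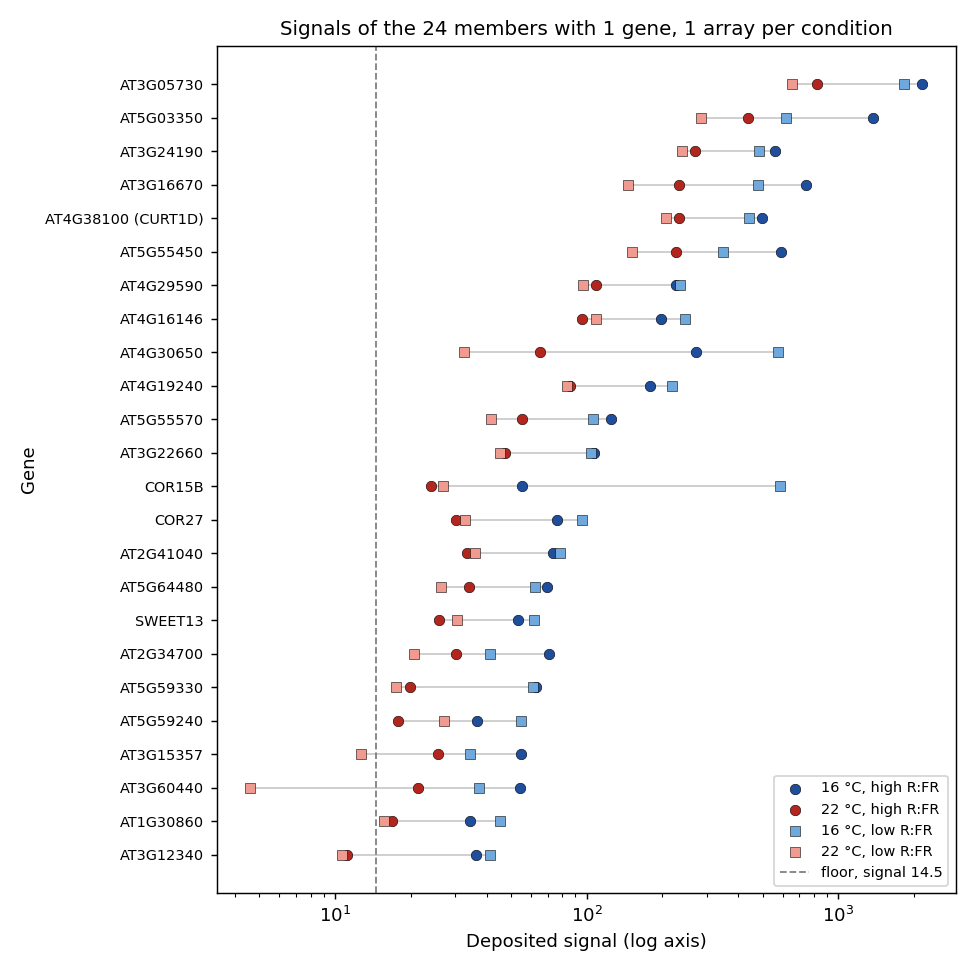
Deposited signal (log axis) of the 24 members with 1 gene on the 4 arrays, 1 array per condition, with no error bars because no condition was repeated. Blue points are 16 °C and red points 22 °C, circles high and squares low R:FR. In every row both blue points lie to the right of both red points, and the widest spans belong to AT4G30650 and COR15B, and to AT3G60440 through a value of 4.6 below the floor (dashed line).

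The list of cold-regulated genes held 23 genes, of which 6 had a probe set here and all 6 were measured. COR27 and COR15B were members. In high R:FR 3 of the 6 were at least 2-fold higher at 16 °C and 0 lower, and in low R:FR 4 were higher and 0 lower. Their median log2 difference was 0.67 in high and 1.61 in low R:FR, against -0.04 and -0.05 over all measured probe sets. These counts and medians include COR27 and COR15B, which the rule itself put past 2-fold in both light conditions. In high R:FR the others were COR15A at -0.91 (uncertain in size, as given above), COR47 at -0.56, LTI30 at 0.14 and COR28 at 1.24. In low R:FR, in the same order, they were at 4.06, 0.08, 1.67 and 0.38. Across all measured probe sets 1.12% passed 2-fold upwards at 16 °C in high R:FR, 1.59% in low R:FR, and 0.31% in both, the last by the same rule that made the members. Downwards these shares were 3.01% in high and 6.51% in low R:FR. COR28 (AT4G33980), the close relative of COR27, passed in high R:FR only, with 42.9 against 18.2 (log2 1.24), and was at 0.38 in low R:FR. The 18.2 is just above 17.9, the highest signal of the absent controls, so the size of that difference is uncertain too. The dehydrin gene LTI30 passed in low R:FR only, with log2 differences of 0.14 and 1.67. COR47, another dehydrin gene, was at -0.56 and 0.08. The CBF genes themselves were not analysed here.

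SWEET13, a sucrose exporter of the plasma membrane, was the member from the list of sucrose, starch and sugar transport genes. Its signals were 53.2 and 61.5 at 16 °C and 25.9 and 30.5 at 22 °C. With ratios of 2.05 and 2.02 it lay just inside the rule. Of the 19 listed genes 4 were measured, and 2 were at least 2-fold higher at 16 °C in high and 1 in low R:FR, with medians of 0.99 and 0.94 and 0 lower. These counts and medians include SWEET13, which the rule chose. ATSPS4F, a sucrose phosphate synthase gene, was just outside, with 346 against 167 in high R:FR (log2 1.05) and 322 against 168 in low R:FR (log2 0.94). F2KP, whose enzyme makes and removes the regulator fructose 2,6-bisphosphate, was at 0.93 in both. SWEET11, a relative of SWEET13, had 1352 and 1127 in high R:FR and 1123 and 1221 in low R:FR, with differences of 0.26 and -0.12.

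**Figure D2:**
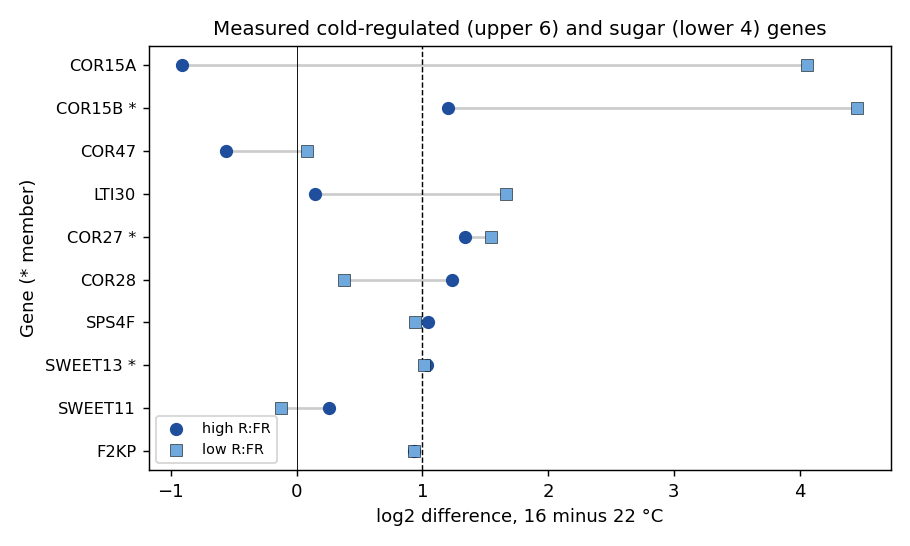
Log2 difference of signal, 16 minus 22 °C, for the measured genes of the cold-regulated list (upper 6) and of the sugar list (lower 4), with dark circles for high and light squares for low R:FR and an asterisk for members. COR15A, COR15B and LTI30 lie far to the right in low R:FR only, whereas COR27, SWEET13, SPS4F (ATSPS4F) and F2KP have nearly the same difference in both, between 0.93 and 1.55.

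The other lists had no member. The clock list had 1 measured gene, GI, which keeps evening time and was lower at 16 °C (log2 -0.62 and -0.89). None of the 5 measured genes of light harvesting and carbon fixation passed 2-fold at either light, with medians of 0.01 and -0.10. The 4 flavonoid genes had medians of -0.61 and -0.43, with 1 at least 2-fold lower in high R:FR, UF3GT at -1.08. Of 3 measured genes of warmth and shade growth 2 were at least 2-fold lower at 16 °C in high R:FR, GH3.3 (-1.15) and GH3.5 (-1.40), and IAA29 was at 0.52. In low R:FR 1 was lower, GH3.3 at -1.33, with GH3.5 at -0.87 and IAA29 at 0.42. ICL, of the glyoxylate cycle of seedlings that live on seed oil, had 3.2 and 3.5 at 16 °C, below the floor, and 20.5 and 132 at 22 °C. The lists for RNA-binding proteins and fatty acid desaturation had no gene with a matched probe set here. The heat shock list had 2, and neither was bright enough to count as measured. Across all lists 28 of 160 genes had a matched probe set and 25 were measured, so that they cover little of each pathway.

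AT3G05730, a defensin-like gene, was the brightest, with 2148 in high and 1815 in low R:FR at 16 °C and 821 and 653 at 22 °C. Its ratios of 2.62 and 2.78 are close to each other, and its mean signal lay at the 96.8th percentile of measured probe sets. AT5G55450, of the lipid transfer protein family, had 594 and 348 at 16 °C and 227 and 152 at 22 °C. AT5G59330, of the same family, was much dimmer, with 62.8 and 61 at 16 °C and 19.9 and 17.4 at 22 °C, the last below the highest signal of those absent controls. Its ratios of 3.16 and 3.51 therefore rest on dim values at 22 °C, and it lies next to LTP3, a gene of the family whose cross-hybridization was not tested.

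AT5G03350 encodes a legume lectin domain protein. Its signal was 1368 in high and 619 in low R:FR at 16 °C, and 438 and 284 at 22 °C. The 16 °C values lie above the 22 °C values, but the lower of the former is only 1.42 times the higher of the latter. AT3G16670 and AT2G34700, of the family of pollen Ole e 1 allergen and extensin-like proteins, differed in level and size of difference. AT3G16670 had 740 and 481 at 16 °C and 233 and 146 at 22 °C, ratios of 3.18 and 3.29, the largest smaller ratio of the members with a gene after AT4G30650. AT2G34700 had 70.9 and 41.2 at 16 °C and 30.3 and 20.6 at 22 °C.

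AT4G38100 (CURT1D) belongs to a family of chloroplast proteins that bend thylakoid membranes at the edges of grana. It had 496 and 441 at 16 °C and 232 and 206 at 22 °C. Its ratio was 2.14 in both light conditions. AT3G24190, of the ABC1 family of atypical kinases, had 562 and 485 at 16 °C and 269 and 239 at 22 °C (ratios 2.09 and 2.03). AT2G41040 and AT4G29590 encode methyltransferases of the S-adenosylmethionine type. AT2G41040 had 73.4 and 78.1 at 16 °C and 33.4 and 35.9 at 22 °C. AT4G29590 had 225 and 234 at 16 °C and 109 and 96.3 at 22 °C. For these 4 the 2 arrays of a temperature were much closer to each other than to those of the other temperature.

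Of genes for ribosome making, AT3G22660, an rRNA processing gene, had 107 and 104 at 16 °C and 47.5 and 45.4 at 22 °C. AT5G59240, a gene of ribosomal protein S8, was dimmer, with 36.8 and 54.9 at 16 °C and 17.8 and 27.2 at 22 °C. Its lower 16 °C signal was 1.35 times its higher 22 °C signal. The 17.8 lies below 17.9, the highest signal of the absent controls. AT4G16146, of a family related to a phosphoprotein that inhibits protein phosphatases in animals, had 198 and 246 at 16 °C and 95.6 and 109 at 22 °C.

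In 3 of the members with a gene a 22 °C signal was under the floor, so that only a bound can be given. AT3G12340, a peptidyl-prolyl isomerase gene of the FKBP type, had 36.4 and 41.4 at 16 °C and 11.2 and 10.7 at 22 °C, at least 2.51-fold and at least 2.86-fold higher. AT3G60440, of the phosphoglycerate mutase family, had 54.5 and 37.4 at 16 °C and 21.3 and 4.6 at 22 °C, a ratio of 2.56 in high and at least 2.58 in low R:FR. AT3G15357 had 54.6 and 34.5 at 16 °C and 25.7 and 12.7 at 22 °C. All 3 were among the dimmest measured probe sets, at the 0.694th to the 7.6th percentile. Including probe sets with no gene, 5 members had such a value, 1 of them at both 22 °C arrays, and no member had one at 16 °C.

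The remaining members with a gene are of families not described here. AT5G55570 had 125 and 106 at 16 °C and 55.5 and 41.5 at 22 °C. AT4G19240 had 178 and 219 against 85.8 and 83.4, AT5G64480 had 69.8 and 62.3 against 34.1 and 26.4, and AT1G30860, named to complete the 24, had 34.3 and 45.2 against 16.9 and 15.7. Both 22 °C signals of AT1G30860 lie below 17.9, the highest signal of the absent controls, so the size of its differences is uncertain. In all of these remaining members both 16 °C signals were above both 22 °C signals.

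The 18 members with no gene here spanned the same range, from 38.1 to 1532 in high and 38.3 to 1868 in low R:FR at 16 °C, and from 12.7 to 760 and 2.7 to 680 at 22 °C. They held 3 of the 4 members past 4-fold in both light conditions and 6 of the 9 past 3-fold. The probe set 248380_at had 369 and 481 at 16 °C and 76.4 and 60.4 at 22 °C, ratios of 4.83 and 7.96, the largest smaller ratio of all 42. The probe set 263852_at had 314 and 120 against 45 and 27.8, ratios of 6.97 and 4.3. The strongest members by this measure are thus mostly without a gene name here.

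**Figure D3:**
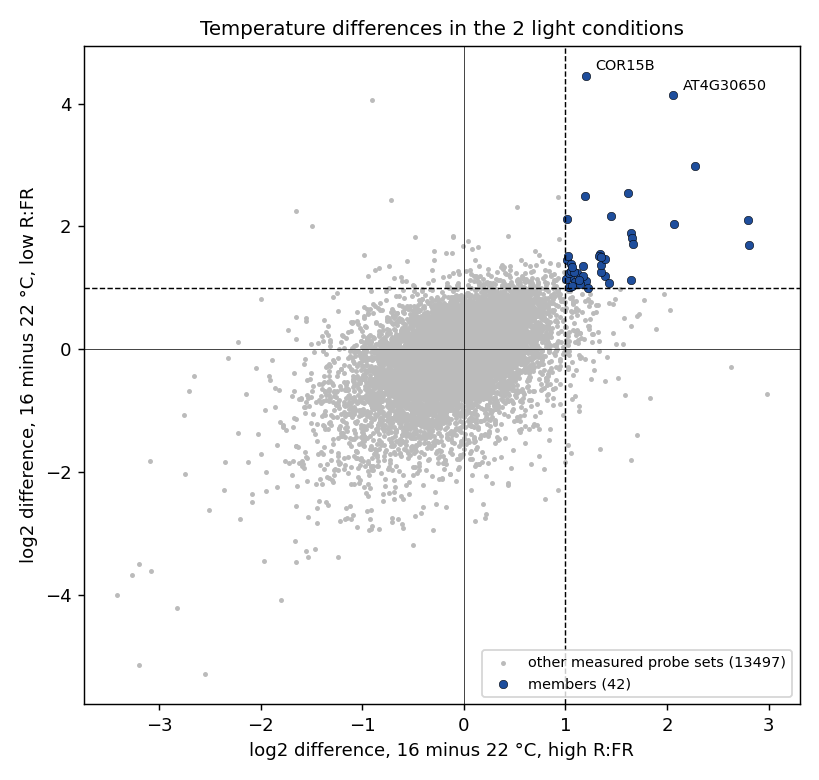
Log2 difference of signal, 16 minus 22 °C, in high R:FR (horizontal) and low R:FR (vertical) for the 13539 measured probe sets, with the 42 members in blue and dashed lines at the threshold of 1. Most members lie close to the corner where the lines cross, and COR15B and AT4G30650 stand above the rest in low R:FR.

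Most members lay near the threshold. The median difference was log2 1.20 in high and 1.36 in low R:FR, and 27 of the 42 had a smaller difference under 1.3. Just inside with a gene were AT2G34700, which met the threshold exactly in low R:FR (41.2 and 20.6), SWEET13 at 1.01 and AT5G59240 at 1.01. Just outside were AT4G34950 at 0.99, AT5G44440 at 0.95 and ATSPS4F at 0.94, and 20 probe sets in all were within 0.1 below the threshold. AT4G34950 had 714 and 858 at 16 °C and 360 and 397 at 22 °C, and AT5G44440 had 49.8 and 142 against 24.5 and 73.8. The members made up 27.6% of the 152 probe sets past 2-fold at 16 °C in high R:FR and 19.5% of the 215 in low R:FR. In all 42 both 16 °C signals were above both 22 °C signals, an order that the rule nearly fixes and that 23.8% of all measured probe sets showed. The narrowest gap was 1.34-fold, in AT3G15357.

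The brightness of the members was much like that of all measured probe sets, with a median mean signal of 97.3 against 87.4. It ran from 23.7 to 1202, with 5 members above 500 and 8 whose brightest signal was under 60. The 24 genes lay on all 5 chromosomes, 8 of them on chromosome 5, 7 on 3, 5 on 4, 3 on 2 and 1 on 1, and 0 pairs were neighbours. The closest were AT5G59240 and AT5G59330, 10 protein-coding genes apart. No other named probe set for any of the 24 genes was in the table, so that no second measurement of a gene was identified. Whether probe sets with no gene here belong to any of the 24 cannot be told.

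The light comparison, low against high R:FR at one temperature, was not used by the rule, although it rests on the same 4 arrays. At 16 °C 2 of the 42 members were at least 2-fold higher in low R:FR (1.65% of all measured probe sets) and 4 at least 2-fold lower (2.91% of all). At 22 °C 0 were higher (0.857% of all) and 3 lower (0.51% of all). The latter count was 6 with the floor lowered to the 10th percentile, 1 with it raised to the median signal and 0 with a pseudocount instead. It was 2 with arrays scaled to the same trimmed mean. Within 2-fold between high and low R:FR were 36 members at 16 °C (85.7%, against 95.4% of all) and 39 at 22 °C (92.9%, against 98.6% of all).

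The 2 members higher in low R:FR at 16 °C were COR15B and AT4G30650. COR15B was 10.6-fold higher, a log2 of 3.41, where the local SD, taken over 500 probe sets of similar mean signal, was 0.37. At 22 °C it was at 0.16 (local SD 0.30). AT4G30650 was 2.11-fold higher at 16 °C (log2 1.08, local SD 0.30), and at 22 °C its signal in low R:FR was exactly 2-fold below that in high R:FR, log2 -1 (local SD 0.24). COR27, by contrast, was at 0.33 at 16 °C (local SD 0.39) and 0.11 at 22 °C (local SD 0.30), within its local SD at both temperatures.

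Among the 4 members lower in low R:FR at 16 °C, AT5G03350 was the only one with a gene (log2 -1.14, local SD 0.22), and it was at -0.62 at 22 °C (local SD 0.18). Others were below 0 at both temperatures without passing 2-fold. AT5G55450 was at -0.77 and -0.58, AT2G34700 at -0.78 and -0.56 and AT3G16670 at -0.62 and -0.67. For AT3G16670 and AT5G55450, both bright, the local SD was at most 0.28. The dim AT3G15357 was at -0.66 at 16 °C (local SD 0.56). At 22 °C its low R:FR signal was below the floor, so that its response was at most -0.83, or -1.02 with the floor lowered to the 10th percentile, which is past 2-fold. The one member above 0.5 at both temperatures was AT5G59240, at 0.58 and 0.61 with local SDs of 0.50 and 0.40.

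The median light response of the members was 0.03 at 16 °C, against 0.01 over all measured probe sets. At 22 °C it was -0.17, against 0.01, and 32 of 42 members (76.2%) were below 0, against 48.3% of all. With the floor raised to the median signal this median was -0.04, with 23 members and 43.2% of all below 0, and with arrays scaled to the same median it was -0.22, with 32 members and 55.6% of all below 0. Both light responses were below 0 in 20 members (47.6%, against 25.2% of all) and above 0 in 9. These shares are not independent of the choice of members, since the rule used the same signals. How far the choice shifts them was not tested. With the floor applied, the lowest of the 4 signals came from low R:FR at 22 °C for 32 members. AT3G12340 was not counted there, being below the floor on both 22 °C arrays, though its deposited signal was lowest there (10.7 against 11.2). The highest signal came from high R:FR at 16 °C for 20 members and from low R:FR at 16 °C for 22.

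**Figure D4:**
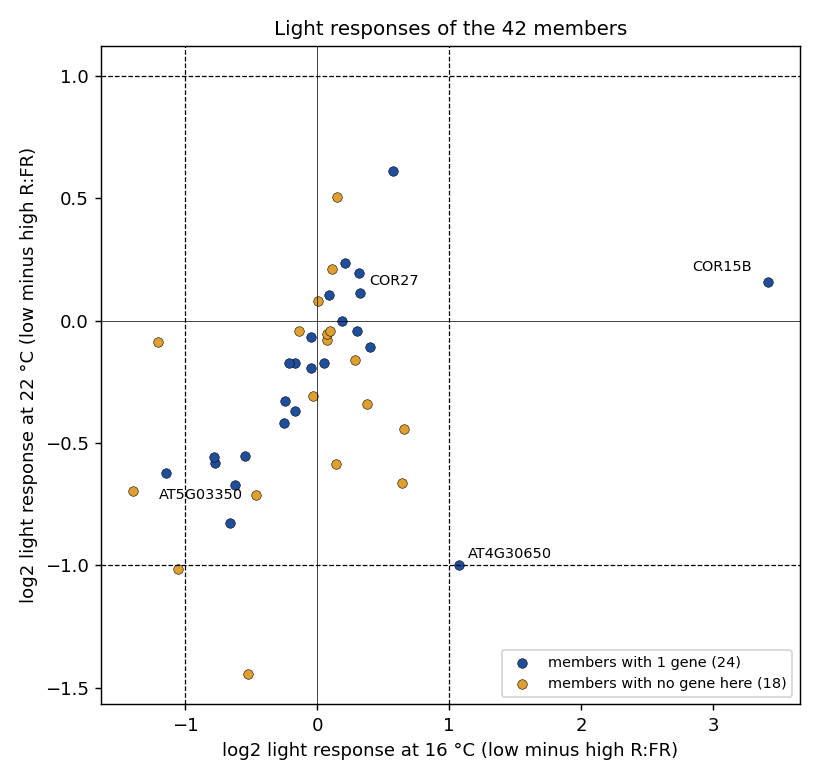
Log2 light response, low minus high R:FR, at 16 °C (horizontal) and at 22 °C (vertical) for the 42 members, blue with 1 gene and orange with none here, with dashed lines at 2-fold. COR15B lies alone on the right at 3.41, AT4G30650 is higher in low R:FR at 16 °C and lower at 22 °C, and most others lie within 2-fold on both axes.

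The light response at 16 °C minus that at 22 °C, which equals the temperature difference in low minus that in high R:FR, was at least 1 for 4 members (2.17% of all measured probe sets) and at most -1 for 1 (4.14% of all). It was 3.25 for COR15B and 2.08 for AT4G30650, and the other 3 have no gene here. For 28 of the 42 (66.7%, against 52.5% of all) it was within 0.3 of 0, both differences being those the rule used. Of members with no signal below the floor, AT4G38100, AT2G41040, AT3G22660 and SWEET13 were nearest to 0, at 0.004, -0.01, 0.02 and -0.03.

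The opposite set, at least 2-fold lower at 16 °C in both light conditions, was larger, with 191 probe sets (1.41% of those measured), so that 18% of the probe sets past 2-fold in both were higher at 16 °C. With arrays scaled to the same median the numbers were 73 higher and 125 lower, 36.9% higher. That scaling moved the median of all measured probe sets to 0.08 in high and 0.13 in low R:FR, from -0.04 and -0.05. How uneven the sets are thus depends on the scaling. The lower set was dimmer, with a median mean signal of 56.7, and its median light response was -0.21 at 16 °C and 0.12 at 22 °C, where the members had 0.03 and -0.17. With 1 array per condition the difference between the sets was not tested. The signals that chose each set also enter its light responses. With arrays scaled to the same median all 42 members remained.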

How the data were processed

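The authors deposited 1 linear intensity value per probe set and array. The submitters' processing notes name MAS5. Its version and settings are not given in the sources, nor is a genome build, so no coordinates are printed. From the deposited intensity values, 64 control probe sets and the 150 with IDs 244901 to 245050 were left out, which leaves 22596. The floor, the minimum mean and the 2-fold rule are given with the results above. Nothing names batches or scan dates. Genes came from a probe set table and RefSeq's gene table (TAIR10.1). The local SD is the scaled median absolute deviation over 500 probe sets. No test was run, since 1 array per group gives no replicate error. The members, the 11 gene lists and the naming rule were chosen with earlier results of these data known. Named were members with 1 gene that had a symbol, one of the 20 largest smaller differences, a light response past 2-fold, a place next to the threshold or on a list, or one of the 10 highest mean signals. The counting rule was checked on simulated data. Python 3.11.15, pandas 2.3.3 and NumPy 2.4.6 were used. Alternatives were other floors, a pseudocount, scalings, filters and thresholds.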

Additional observations from a re-analysis of the deposited data

Results flagged for a closer look

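AT4G30650 responded to light in opposite directions at the 2 temperatures. Its log2 light response was 1.08 at 16 °C, from 273 in high to 575 in low R:FR, and -1 at 22 °C, from 65.2 to 32.6. The difference was not tested, since each condition has 1 array. The 22 °C response lies on the threshold. It was -0.76 with a pseudocount instead of a floor, -0.79 with the floor raised to the median signal and -0.999989 with arrays scaled to the same trimmed mean, just short of 2-fold.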

How the results depend on the processing

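The number of members was 27 with the floor raised to the median signal (37.8), 19 with a pseudocount instead of a floor, 73 with arrays scaled to the same median, 9 at 3-fold and 285 at 1.5-fold. The other counts were 43 with the floor lowered to the 10th percentile, 41 with the same trimmed mean, 51 with quantile normalization, 44 with no filter and 31 with a filter at the 50th percentile of means. Of the 42, 17 remained under all 6 alternatives of floor and scaling, 7 of them with a gene. COR15B, SWEET13 and 9 other genes were lost with the higher floor. That floor and the pseudocount shrink ratios of dim probe sets by construction. At 22 °C the members past 2-fold downwards in low R:FR numbered 6 with the lower floor, 1 with the higher and 0 with the pseudocount. They numbered 2 with arrays scaled to the same trimmed mean, where AT4G30650 fell just short of 2-fold. At 1.5-fold, members higher in low R:FR were 4 at 16 and 1 at 22 °C, and members lower 8 and 9. The 9 leave out a probe set with no gene here that was exactly 1.5-fold lower, with 35.7 in high and 23.8 in low R:FR. The median light responses kept their sign under the 6 alternatives, but that at 22 °C moved from -0.17 to -0.04 with the higher floor. Members with a gene gave 576 values under these alternatives. None that was at least 2-fold in the main setting changed sign, and a change of sign in a smaller value was not counted. Of the 576, 62 moved by more than the SD of the spiked transcripts. These were 4 with the lower floor, 27 with the higher floor and 31 with the pseudocount. No paired analysis of replicates was possible because each group has 1 array, and an additive fit over the 4 arrays was not run. The planned promoter motifs were not run, since no promoter sequences were used here. What limits the dim members is signal over background: control transcripts absent from the sample reached 17.9.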
